A study of Homo sapiens with 6 samples.

Results

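The genes described here encode the cytosolic translation initiation factors eIF1 to eIF6 and the elongation factors eEF1 and eEF2, with their paralogues and the regulators that carry the same family names. They were taken as the protein-coding genes of the deposited log2 FPKM table whose names begin with EIF1 to EIF6, EEF1 or EEF2. This gave 62 genes of the 18404 in that table, and all 62 passed the filter on low counts, so that each was tested among 15116 genes. Cells of HepG2, an established human hepatocellular carcinoma line, were grown with 10 µM oridonin, a diterpenoid of the plant Isodon rubescens, or with 0.1% DMSO, the solvent control, for 48 h. RNA was sequenced in 3 libraries per group. The labels name no DMSO content for the oridonin wells, and they do not say whether the libraries came from separate cultures, so the p-values measure only the spread between these libraries, which may be technical.

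In eukaryotic initiation, eIF1, eIF1A, eIF3 and the ternary complex of eIF2, GTP and initiator tRNA load onto the small ribosomal subunit, and eIF4F, made of the cap-binding eIF4E, the scaffold eIF4G and the helicase eIF4A, brings that subunit to the mRNA cap. eIF2B recharges eIF2 with GTP, and phosphorylation of eIF2α by stress kinases blocks this step, while the 4E-binding proteins hold eIF4E away from eIF4G. In elongation, eEF1A delivers aminoacyl-tRNA, the eEF1B subunits recharge eEF1A, and eEF2 moves the ribosome along. Transcripts of the elongation factors and of some initiation factors begin with a C followed by a run of pyrimidines, the terminal oligopyrimidine (TOP) motif, through which mTORC1 and LARP1 control their translation.

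The start sites of members that fell and of members that rose are shown first. Among the members with a listed start, those with a TOP start and those without one had different counts of lower calls. Each line gives 30 bases of the sense strand, 5′ to 3′, namely the 15 bases before the start listed by RefSeq on GRCh38.p14 and the first 15 bases from it. The capitals mark the C at the listed start and the unbroken C or T bases after it, where at least 4 followed.
EEF1A1, chr6:73521018-73521047, minus strand: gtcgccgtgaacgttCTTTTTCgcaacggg
EEF2, chr19:3985449-3985478, minus strand: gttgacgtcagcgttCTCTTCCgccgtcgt
EEF1B2, chr2:206159880-206159909, plus strand: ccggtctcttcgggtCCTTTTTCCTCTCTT
EIF4B, chr12:53006441-53006470, plus strand: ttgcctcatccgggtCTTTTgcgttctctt
EIF2A, chr3:150546772-150546801, plus strand: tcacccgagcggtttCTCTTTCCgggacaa
EIF2S3, chrX:24054941-24054970, plus strand: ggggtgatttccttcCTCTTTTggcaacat
EIF3F, chr11:7987322-7987351, plus strand: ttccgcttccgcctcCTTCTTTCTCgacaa
EIF3D, chr22:36529152-36529181, minus strand: gcgcgcgcatgtttcCTCTTTTCCTggttt
EIF2AK3, chr2:88627450-88627479, minus strand: ggcgatgtccgagataggctgtcactcagg
EIF4EBP2, chr10:70404130-70404159, plus strand: ctcccgccttcgcccgcttccggtcgtcgt
EIF2S1, chr14:67360313-67360342, plus strand: gcgaggaggttccgcatgcgcggtggagtg
EIF2B3, chr1:44986581-44986610, minus strand: attgggctgtcagtcagaggcggcgtggag
EIF3I, chr1:32222392-32222421, plus strand: accttttccggtcttactcacgttgcggcc
The first 7 of these genes fell with oridonin and had a TOP start. EIF3D rose and also had one. EIF2AK3 and EIF4EBP2 fell and had none at the listed start, as did EIF2AK2, EIF3C and EIF1AX, which are not shown. Of these, EIF4EBP2 and EIF3C had such a run within 10 bases of it. EIF2S1, EIF2B3 and EIF3I rose and had none. Also not shown are EIF2S3L and EIF2D, which had a TOP start and fell, and EIF3M, EIF3K and EIF4A2, which had one and were not called. In EEF1B2 the run went on past the window, to 15 pyrimidines after the C.

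With oridonin, 22 of the 62 genes fell and 11 rose, at an adjusted p under 0.05 in edgeR's quasi-likelihood test, and 29 were not called. Over all genes tested, 41.9% were called, 21.3% lower and 20.6% higher. The members' median log2 fold change was -0.03, beside 0.01 over all genes tested. Changes were modest in size: no member reached a log2 fold change of 1 in either direction, and the median size among the called members was 0.28, against 0.38 among all called genes. All oridonin libraries lay below all DMSO libraries for 22 members and above them for 15, where these shares were 25.6% and 26.0% of all genes tested. By role, the 6 elongation factors had 4 lower and no higher calls, the 4 eIF2α kinases 3 lower and none higher, the 3 genes of 4E-binding proteins 2 lower and none higher, and the 5 eIF2B genes 3 higher and none lower. With total-count scaling 1 kinase was called higher. Calls went both ways among the 13 genes grouped under scanning and ternary complex delivery (6 lower, 2 higher). They did so too among the 14 eIF3 genes (6 lower, 3 higher) and the 11 of the cap complex and its cofactors (1 lower, 1 higher). No difference between roles was tested.

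**Figure D1:**
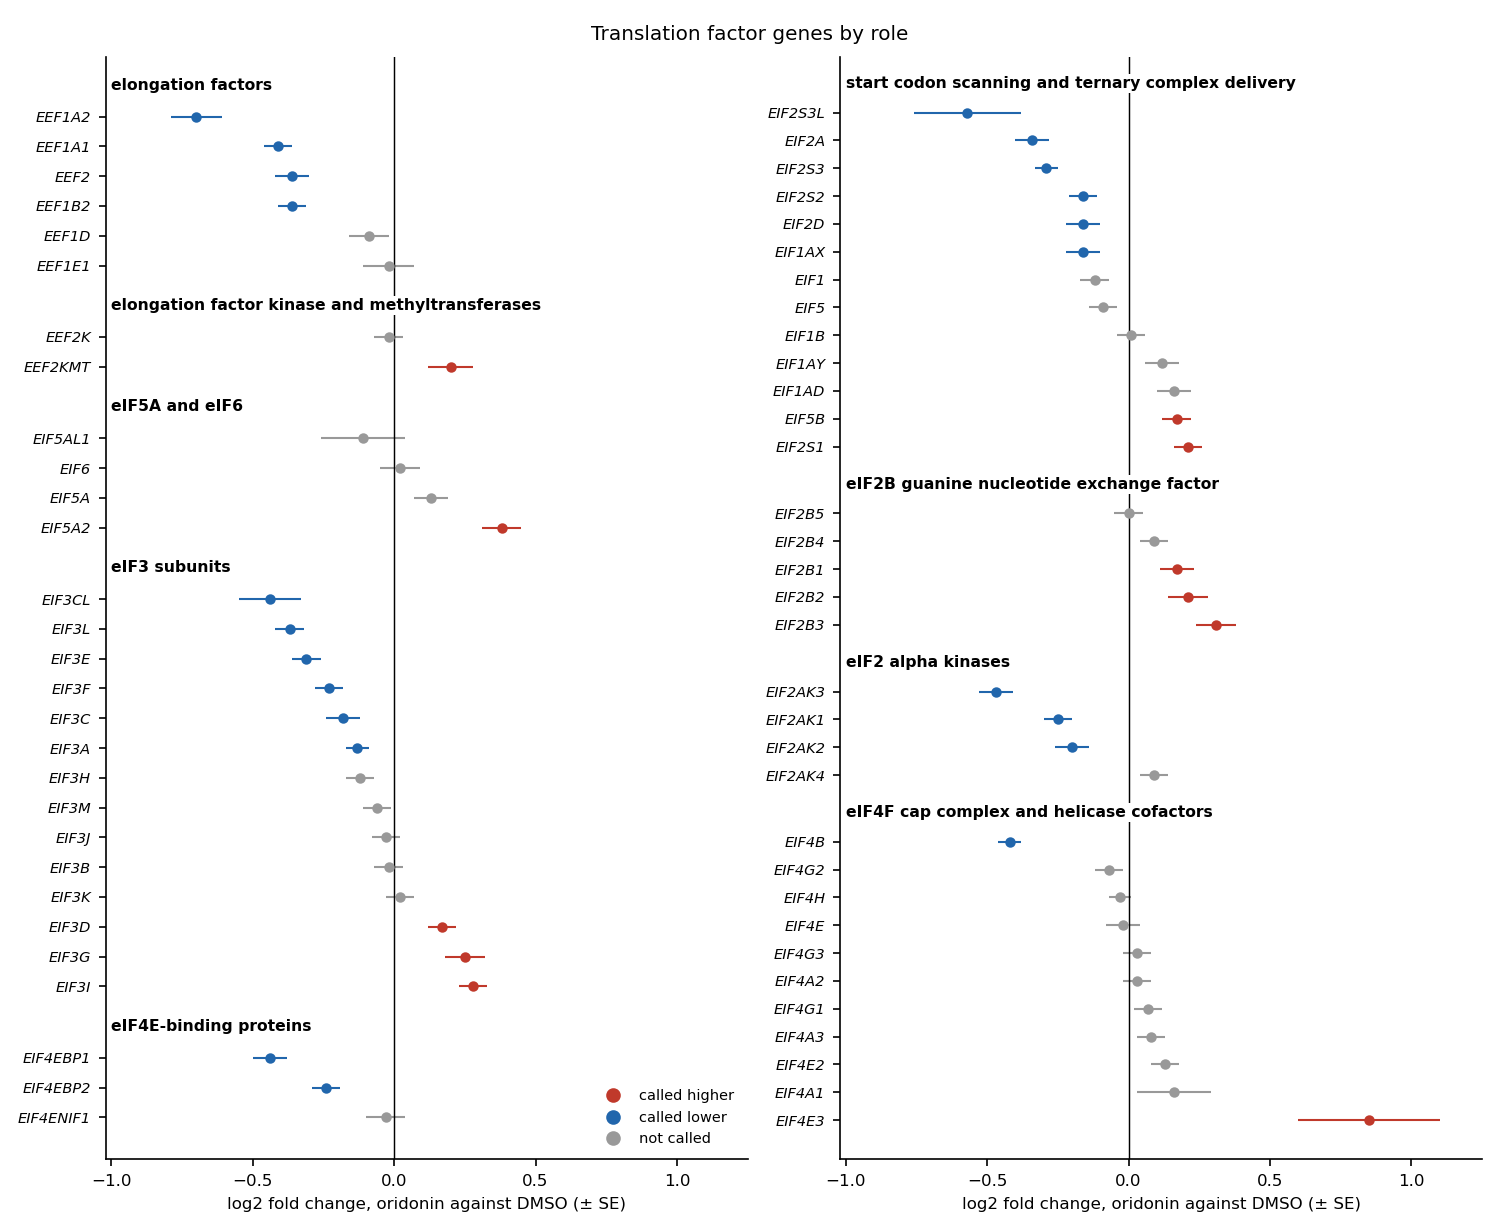
Log2 fold change (oridonin over DMSO, horizontal axis) of each of the 62 genes, grouped by role. Points are edgeR estimates with bars of 1 standard error, coloured by call at an adjusted p under 0.05. The 22 lower calls run from -0.70 for EEF1A2 to -0.13 for EIF3A, and the 11 higher calls from 0.17 to 0.85 for EIF4E3.

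Total counts ran from 22250202 to 30739574 per library. Levels are given as CPM, counts scaled to the library's size with edgeR's TMM factors, unless FPKM, which is also per gene length, is named. Scaling by total counts alone moved the median of all tested genes by 0.08 on the log2 scale and gave 19 higher and 16 lower members, beside 29.7% higher and 15.6% lower over all genes. No called member changed direction with that scaling, and 9 members that were not called changed sign. The hepatocyte markers summed to between 24059 and 27976 CPM of total counts in DMSO and to between 15118 and 17569 in oridonin, with 6 of 9 lower and 1 higher. The 11 B and plasma cell markers summed to between 4.58 and 16.6 CPM in DMSO and between 36.2 and 81.4 in oridonin. Of them 7 were tested, 3 were higher and 1 lower, and MS4A1 was at 0 in all libraries. Summed markers of myeloid cells (669 to 691 CPM in DMSO, 428 to 467 in oridonin) and of gut epithelium (365 to 396, then 307 to 322) were lower, although 4 of the 6 gut markers were called higher and 1 lower. Those of fibroblasts and endothelium (6.65 to 8.72, then 11.4 to 12.8) and of T and NK cells (1.98 to 2.76, then 2.96 to 3.94) were higher, and no list's groups overlapped. The part of these shifts in the results was not tested. The labels name only HepG2 for every library, so these sums are levels of marker genes and not measures of cell types present. In bulk RNA, a change in some of the cells and a change in all of them cannot be told apart.

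Of the 6 elongation factor genes, 4 fell (EEF1A1, EEF2, EEF1B2 and EEF1A2) and 2 were not called, with a median log2 fold change of -0.36. EEF1A1, EEF2 and EEF1B2 were also the 3 most abundant members per length. EEF1A1 (ENSG00000156508, chr6:73515750-73523797), which encodes the main eEF1A protein, took between 1.11% and 1.49% of all counts. Its level was 15078, 15205 and 14991 CPM in the DMSO libraries and 11065, 12070 and 10925 CPM in the oridonin libraries. The groups were far apart, and the second oridonin library was the highest of its group. The log2 fold change was -0.41 (SE 0.05, adjusted p = 1.65e-06 in edgeR).

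EEF2 (ENSG00000167658, chr19:3976056-3985469) encodes the translocase. It stood at 4110, 4153 and 4753 CPM in DMSO and at 3371, 3179 and 3624 CPM in oridonin, so the groups did not overlap, though the third DMSO library stood above the other two. Its log2 fold change was -0.36 (SE 0.06, adjusted p = 0.000276 in edgeR). EEF1B2, a guanine exchange subunit of eEF1B, fell by a like amount, from 610 ± 28.5 to 476 ± 15.6 CPM (SD, n = 3), a log2 fold change of -0.36. Of its 50-base words, 31.4% also occurred in other genes' transcripts in GENCODE 29, mostly in the pseudogene EEF1B2P3, so its counts may be shared.

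EEF1A2, the eEF1A paralogue best known from muscle and neurons, had the largest fall of any member. It was at 12.7, 11.8 and 13.9 CPM in DMSO and at 7.91, 7.53 and 8.26 CPM in oridonin. The lowest DMSO library was well above the highest oridonin library, and the log2 fold change was -0.70 (SE 0.09, adjusted p = 1.44e-05 in edgeR). Per length it was a small part of the pair: EEF1A1 made up 99.7% of their summed FPKM in DMSO and 99.8% in oridonin. EEF1D (-0.09) and EEF1E1 (-0.02), an eEF1B exchange subunit and a scaffold protein of the synthetase complex, were not called. EEF1D was called lower only when the third oridonin library was left out (-0.17, edgeR adjusted p = 0.0488). Of its exon bases in GENCODE, 34.0% were overlapped on the opposite strand by AC067930.6. The strand setting is not given in the sources used here, so the level of EEF1D is uncertain.

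**Figure D2:**
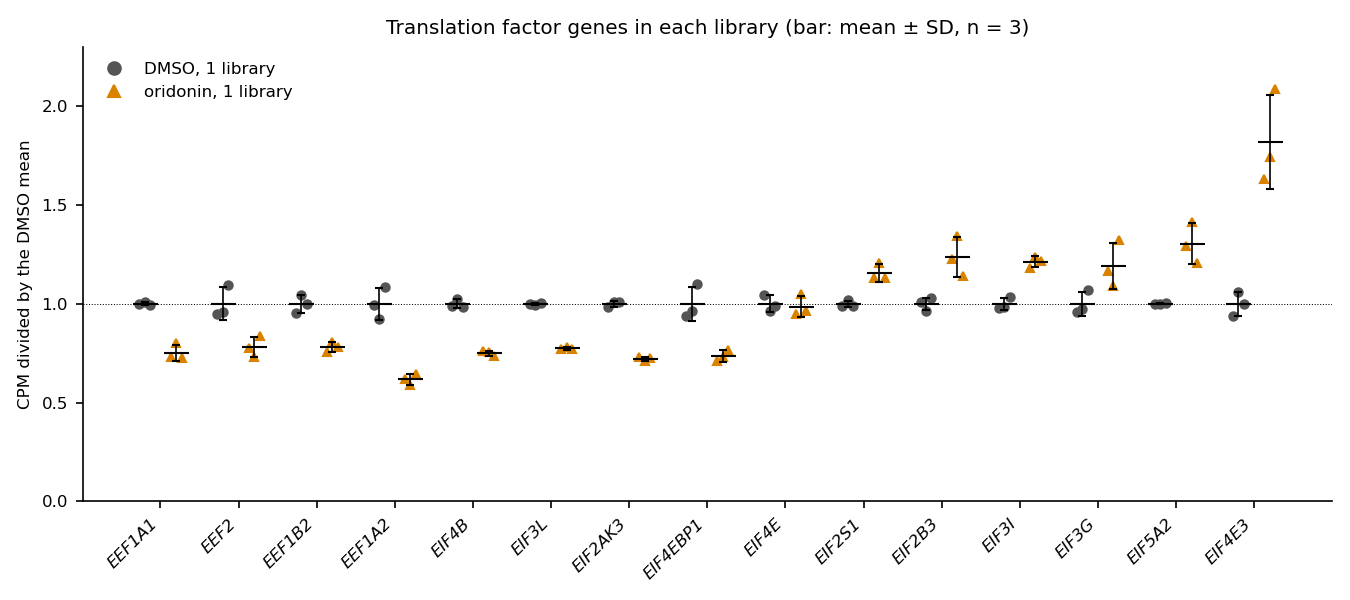
Level in each library of selected members (horizontal axis), as CPM divided by the gene's mean in the DMSO libraries (vertical axis, no unit, dotted line at the DMSO mean). Circles are DMSO and triangles oridonin libraries, and bars give the mean ± SD (n = 3). The groups of EIF4E overlap, and those of EEF1A1, EEF2, EIF4B and EIF2AK3 do not.

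Of the 2 genes for enzymes that modify eEF2, 1 was called higher and 1 was not called. EEF2K, the kinase that inhibits eEF2, was at 83.5, 79.0 and 78.9 CPM in DMSO and 78.5, 80.9 and 78.1 CPM in oridonin. These ranges overlapped, and the log2 fold change of -0.02 (SE 0.05, adjusted p = 0.75 in edgeR) was not called. EEF2KMT, a lysine methyltransferase of eEF2, was at 25.2, 23.2 and 27.7 CPM in DMSO and 27.3, 28.9 and 31.3 CPM in oridonin. It was called higher (log2 fold change 0.20, SE 0.08, edgeR adjusted p = 0.0431) although the highest DMSO library lay above the lowest oridonin library. This call was lost in 6 of 12 alternatives, among them those without the first or second DMSO library (0.19 and 0.14) or without the second or the third oridonin library (0.21 and 0.15), and 25.7% of its 50-base words occurred in other genes, most of all FAM86B1.

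Among the 13 genes grouped under start codon scanning and ternary complex delivery, 6 fell, 2 rose and 5 were not called. Their median log2 fold change was -0.12. The group includes EIF1AD and EIF2S3L, a copy of EIF2S3, and whether these act in such steps was not examined. The 3 subunits of eIF2 were called in different directions. EIF2S1, which encodes eIF2α, the subunit that the stress kinases phosphorylate, stood at 115, 118 and 115 CPM in DMSO and at 131, 140 and 131 CPM in oridonin. The oridonin libraries were all above the DMSO libraries, and the log2 fold change was 0.21 (SE 0.05, adjusted p = 0.00218 in edgeR).

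EIF2S3, which encodes eIF2γ, the GTP-binding subunit, fell from 284 ± 1.56 to 232 ± 2.81 CPM (SD, n = 3), a log2 fold change of -0.29 (SE 0.04, adjusted p = 4.58e-05 in edgeR). EIF2S2, which encodes eIF2β and was the most abundant of this role per length (166 FPKM in DMSO), was at 429, 457 and 445 CPM in DMSO and 402, 395 and 391 CPM in oridonin. The groups did not overlap and it was called lower (-0.16, edgeR adjusted p = 0.00763), but not with total-count scaling (-0.08) or without the second DMSO library (-0.15, adjusted p = 0.0557). As a share of the summed FPKM of the eIF2 genes, EIF2S1 was 7.73%, 7.58% and 7.55% in DMSO and 9.59%, 10.3% and 9.79% in oridonin. The share of EIF2S3 was 30.3% ± 0.613 in DMSO and 27.8% ± 0.113 in oridonin (SD, n = 3). The FPKM ratio of EIF2S1 to EIF2S3 was 0.251 ± 0.00364 and 0.355 ± 0.0117 in the same order. These shares and ratios were chosen after the values were seen and carry no test. Of the 50-base words of EIF2S3 and EIF2S2, 19.2% and 22.6% also occurred in other genes' transcripts, so their counts may be shared. For EIF2S1 this was 0.0%.

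EIF2S3L, a copy of EIF2S3 with which it shares 26.8% of its 50-base words, was at 2.42, 2.92 and 2.70 CPM in DMSO and 1.85, 1.36 and 2.23 CPM in oridonin. It was called lower (-0.57, SE 0.19, edgeR adjusted p = 0.024), with groups that did not overlap at this low level. Without the second DMSO library (-0.51) or the second oridonin library (-0.40) it was not called, nor by DESeq2 (-0.58, adjusted p = 0.0889).

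EIF2A, a factor that can bring initiator tRNA without eIF2, fell from 134 ± 3.07 to 106 ± 8.80 CPM (n = 3, SD, log2 fold change -0.34), and EIF5B, the GTPase that joins the ribosomal subunits, rose from 264 ± 6.33 to 296 ± 8.52 CPM (0.17, edgeR adjusted p = 0.00796). EIF2D, a non-canonical tRNA delivery factor (-0.16, edgeR adjusted p = 0.036), and EIF1AX, which encodes eIF1A (-0.16, edgeR adjusted p = 0.0412), were called lower, but EIF2D lost the call in 8 and EIF1AX in 7 of 12 alternatives. For EIF2D these included leaving out the first DMSO library (-0.13) or the first, second or the third oridonin library (-0.16, -0.17 and -0.14). For EIF1AX they included leaving out the first or second DMSO library (-0.14 and -0.15) or the first or the third oridonin library (-0.12 both). EIF1, EIF1B, EIF1AD, EIF1AY and EIF5, the last of which encodes the GTPase activator of eIF2, were not called, with log2 fold changes from -0.12 (EIF1) to 0.16 (EIF1AD). EIF1AD was called higher with total-count scaling (0.24), with the filter of 1 CPM in 3 libraries (0.17) and by limma on the log2 FPKM values (0.18), and EIF1AY with total-count scaling (0.20). EIF1, the start codon fidelity factor, was called lower without the first DMSO library (-0.15) or the second oridonin library (-0.14).

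For eIF2B, the exchange factor of eIF2, 3 of the 5 subunit genes rose and 2 were not called, and the median log2 fold change was 0.17. The summed FPKM of the complex was 52.6, 53.5 and 55.4 in DMSO and 59.4, 61.2 and 60.1 in oridonin, so every oridonin library was above every DMSO library. EIF2B3, which encodes the γ subunit of the catalytic arm, was at 29.6, 28.4 and 30.2 CPM in DMSO and 36.1, 39.5 and 33.5 CPM in oridonin. Its log2 fold change was 0.31 (SE 0.07, adjusted p = 0.00182 in edgeR). EIF2B2, of the regulatory core, was at 27.1, 31 and 31.8 CPM in DMSO and 35.5, 34.4 and 34.2 CPM in oridonin, with the first DMSO library the lowest (0.21, SE 0.07, edgeR adjusted p = 0.0199).

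EIF2B1, which encodes the α subunit that senses phosphorylated eIF2, was at 53.6, 49.2 and 52.3 CPM in DMSO and 58.2, 57.3 and 59.4 CPM in oridonin (0.17, SE 0.06, edgeR adjusted p = 0.0177). The groups of EIF2B2 and EIF2B1 did not overlap, yet both calls leaned on single libraries. EIF2B2 was not called without the first DMSO library (0.14) or the first oridonin library (0.19), nor by DESeq2 (0.20, adjusted p = 0.0578), and EIF2B1 was not called without the second DMSO library (0.14) or the first or the third oridonin library (0.17 and 0.16). EIF2B4 (0.09) and EIF2B5 (0.00), which encodes the catalytic ε subunit, were not called, although EIF2B4 was called with total-count scaling (0.17).

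Of the 4 kinases that phosphorylate eIF2α, 3 fell. EIF2AK3 (ENSG00000172071, chr2:88556741-88627576), which encodes PERK, the kinase of endoplasmic reticulum stress, was at 30.9, 31.8 and 31.7 CPM in DMSO and 23.0, 22.3 and 22.8 CPM in oridonin. Both groups were tight and well apart, with a log2 fold change of -0.47 (SE 0.06, adjusted p = 1.04e-05 in edgeR). EIF2AK1, which encodes the haem-regulated kinase HRI and was the most abundant of the kinases per length (38.9 FPKM in DMSO), was at 226, 215 and 211 CPM in DMSO and 180, 194 and 173 CPM in oridonin. The groups did not overlap, and the log2 fold change was -0.25 (SE 0.05, adjusted p = 0.000913 in edgeR).

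EIF2AK2, which encodes the double-stranded RNA sensor PKR, fell from 55.6 ± 3.01 to 48.4 ± 1.57 CPM (n = 3, SD, log2 fold change -0.20, edgeR adjusted p = 0.011), a call that was lost with total-count scaling (-0.12), with limma on the deposited log2 FPKM values (-0.18) and without the first DMSO library (-0.17). EIF2AK4, which encodes the amino acid sensor GCN2, averaged 92.6 ± 2.03 CPM in DMSO against 98.6 ± 3.23 CPM in oridonin (n = 3) and was not called (0.09, edgeR adjusted p = 0.162). With total-count scaling it was called higher (0.17, edgeR adjusted p = 0.0126). The share of EIF2AK4 in the summed FPKM of the kinases was 13.1%, 13.6% and 13.4% in DMSO and 16.6%, 16.3% and 16.7% in oridonin, while that of EIF2AK3 was 9.54%, 10.2% and 10.4% and then 8.54%, 7.83% and 8.76%. For both, the groups did not overlap, which gave the smallest p that 3 against 3 libraries allow in a two-sided exact permutation test (p = 0.1, adjusted p = 0.231 over 15 such shares).

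**Figure D3:**
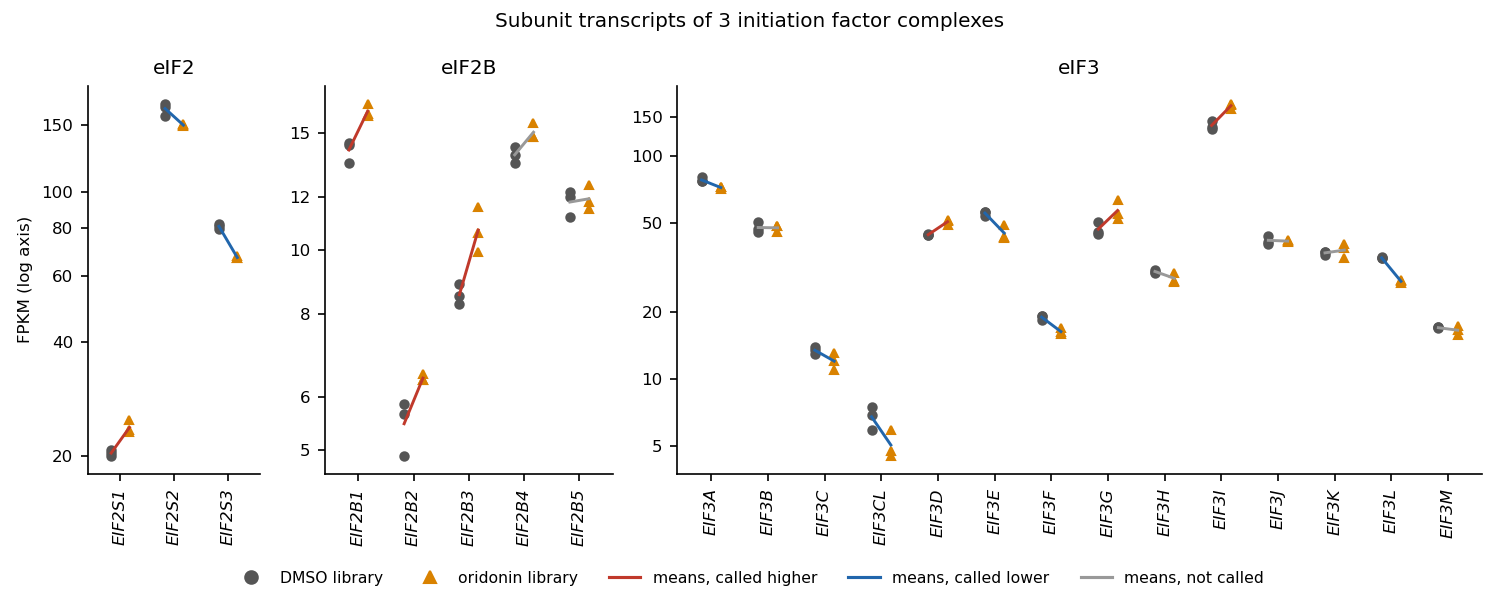
FPKM of the subunit genes of eIF2, eIF2B and eIF3 in each library, on logarithmic vertical axes. Circles are DMSO libraries and triangles oridonin libraries, and lines join the group means, coloured by edgeR call. In eIF2 EIF2S1 goes up while EIF2S2 and EIF2S3 go down, and in eIF3 EIF3D, EIF3G and EIF3I go up while EIF3A, EIF3C, EIF3CL, EIF3E, EIF3F and EIF3L go down.

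eIF3 is the largest initiation factor, a scaffold on the small ribosomal subunit. Of its 14 genes, 6 fell, 3 rose and 5 were not called, with a median of -0.09. The 6 that fell (EIF3A, EIF3C, EIF3CL, EIF3E, EIF3F and EIF3L) all belong to the octamer of PCI and MPN domain subunits, which has 9 genes here, and none of the 9 rose. The 3 that rose (EIF3D, EIF3G and EIF3I) lie outside it, where none of 5 genes fell. This grouping by structure was chosen after the values were seen and was not tested. EIF3C and EIF3CL share much of their sequence, so their falls are not separate. The calls of EIF3A and EIF3C were lost in 8 and 6 of 12 alternatives. With total-count scaling, 4 octamer genes were lower and the same count of 3 outside it was higher.

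EIF3L (ENSG00000100129, chr22:37848868-37889407) was at 152, 151 and 153 CPM in DMSO and 117, 119 and 117 CPM in oridonin. Its libraries hardly varied within a group, and its log2 fold change was -0.37 (SE 0.05, adjusted p = 5.91e-06 in edgeR). In GENCODE 29, 36.0% of its 50-base words also occurred in AL022311.1, an overlapping gene, or other genes. EIF3I, which encodes a β-propeller subunit and was the most abundant of the complex per length (138 FPKM in DMSO), was at 233, 235 and 247 CPM in DMSO and 282, 295 and 290 CPM in oridonin. It lay above in every oridonin library, with a log2 fold change of 0.28 (SE 0.05, adjusted p = 0.00014 in edgeR). The FPKM ratio of EIF3I to EIF3L was 3.84, 3.89 and 4.06 in DMSO and 6.02, 6.19 and 6.19 in oridonin.

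EIF3G, an RNA-binding subunit that partners with EIF3I, was at 159, 161 and 177 CPM in DMSO and 193, 181 and 219 CPM in oridonin. The groups came close, with the second oridonin library just above the third DMSO library, and the log2 fold change was 0.25 (SE 0.07, adjusted p = 0.0065 in edgeR). EIF3D, a subunit able to bind the cap, rose from 182 ± 0.847 to 206 ± 4.27 CPM (n = 3, SD, log2 fold change 0.17). EIF3E fell from 336 ± 10.1 to 270 ± 20.4 CPM (-0.31) and EIF3F from 180 ± 2.89 to 154 ± 4.16 CPM (-0.23).

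EIF3CL, a near copy of EIF3C, was at 18.6, 21.6 and 23.2 CPM in DMSO and 18.4, 14.6 and 13.9 CPM in oridonin. The first library of each group nearly met, and the log2 fold change was -0.44 (SE 0.11, adjusted p = 0.0045 in edgeR). EIF3CL shared 97.2% of its 50-base words with other genes, chiefly EIF3C, and EIF3C shared 45.4%, so reads of the pair cannot be told apart over much of their length. EIF3C itself was called lower (-0.18, edgeR adjusted p = 0.0283) with overlapping groups, and the call was lost in 6 of 12 alternatives, among them those without the first (-0.18) or the third (-0.16) DMSO library or the second (-0.11) or the third (-0.18) oridonin library. EIF3A, the largest subunit, was also called lower (-0.13, edgeR adjusted p = 0.0258), but not in 8 of 12 alternatives, including total-count scaling (-0.05) and leaving out any DMSO library (-0.14, -0.14 and -0.12) or the first or the third oridonin library (-0.14 and -0.11). EIF3B, EIF3H, EIF3J, EIF3K and EIF3M were not called, with log2 fold changes from -0.12 to 0.02. EIF3H (-0.12, edgeR adjusted p = 0.0642) was called lower without the third DMSO library (-0.14) or the second oridonin library (-0.16).

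The cap complex eIF4F and its cofactors were mostly not called: 9 of 11 genes did not pass, 1 fell and 1 rose, and the median was 0.03. EIF4B (ENSG00000063046, chr12:53006158-53042209), which encodes the cofactor that stimulates the eIF4A helicase, was at 551, 572 and 549 CPM in DMSO and 423, 421 and 409 CPM in oridonin. No library came near the other group, and its adjusted p was the smallest of all members (log2 fold change -0.42, SE 0.04, edgeR adjusted p = 1.27e-06). Of its 50-base words, 19.4% also occurred in other genes, most in EIF4BP6. EIF4H, the related cofactor and the most abundant of this role per length, was at 448, 438 and 438 CPM in DMSO and 429, 432 and 438 CPM in oridonin, nearly equal (-0.03, SE 0.04, edgeR adjusted p = 0.65).

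EIF4E, the cap-binding subunit, was at 97.6, 89.9 and 92.3 CPM in DMSO and 88.3, 97.7 and 90 CPM in oridonin. The ranges covered each other and it was not called (-0.02, SE 0.06, edgeR adjusted p = 0.813). EIF4E3, the least abundant member per length (0.0672 FPKM in DMSO), was at 0.684, 0.773 and 0.730 CPM in DMSO and 1.19, 1.27 and 1.52 CPM in oridonin, with no overlap. Its log2 fold change of 0.85 (SE 0.25, adjusted p = 0.01 in edgeR) was the highest of all members, but its adjusted p was 0.0725 by DESeq2 and 0.0869 by limma on the deposited log2 FPKM values. EIF4E2, which encodes the cap-binding repressor 4EHP, missed the threshold (0.13, edgeR adjusted p = 0.0563) and was called higher with total-count scaling (0.21), with the filter of 1 CPM in 3 libraries (0.13) and by limma on the deposited log2 FPKM values (0.14). The share of EIF4E in the summed FPKM of the 3 eIF4E genes was 44.2% ± 0.982 in DMSO and 41.6% ± 1.76 in oridonin (SD, n = 3), with overlap.

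The scaffolds EIF4G1 (0.07) and EIF4G3 (0.03), the related EIF4G2 (-0.07), and the helicases EIF4A2 (0.03) and EIF4A3 (0.08), the last a part of the exon junction complex, were not called. With total-count scaling, EIF4G1 (0.15) and EIF4A3 (0.16) were called higher. EIF4A1, which encodes the main eIF4A helicase, had only 5.77 ± 1.0 CPM in DMSO against 6.37 ± 0.676 CPM in oridonin (n = 3, not called, 0.16). In GENCODE 29, 48.6% of its exon bases were overlapped on the same strand by other genes, most by AC016876.2, and how reads there were assigned is not given in the sources used here, so its level is uncertain.

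Of the 3 genes of 4E-binding proteins, 2 fell and 1 was not called. EIF4EBP1 (ENSG00000187840), the mTORC1 target that represses eIF4E when it is not phosphorylated, was at 179, 183 and 209 CPM in DMSO and 135, 139 and 146 CPM in oridonin. The third DMSO library was the highest, and the groups were apart without it too. The log2 fold change was -0.44 (SE 0.06, adjusted p = 1.32e-05 in edgeR). EIF4EBP2 fell from 141 ± 4.41 to 120 ± 3.32 CPM (n = 3, SD, -0.24), and EIF4ENIF1, the eIF4E transporter, was not called (-0.03). The FPKM ratio of EIF4EBP1 to EIF4E was 24.1, 26.7 and 29.7 in DMSO and 20, 18.6 and 21.3 in oridonin, another ratio chosen after the values were seen.

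Of eIF5A and eIF6, 1 of 4 genes rose and 3 were not called. EIF5A2, the paralogue of eIF5A, a factor that carries hypusine and relieves stalled ribosomes, was at 26.5, 26.5 and 26.6 CPM in DMSO and 34.3, 37.5 and 32.0 CPM in oridonin. The DMSO libraries were nearly equal and all below the oridonin libraries (log2 fold change 0.38, SE 0.07, edgeR adjusted p = 0.000242). EIF5A itself, at 202 FPKM in DMSO the fourth in abundance among the members, was at 511, 598 and 606 CPM in DMSO and 634, 587 and 660 CPM in oridonin. The groups overlapped (0.13, SE 0.06, edgeR adjusted p = 0.112). It was called higher with total-count scaling (0.21), with no filter on low counts (0.15) and without the third DMSO library (0.18). EIF6, the anti-association factor of the large ribosomal subunit, was at 161, 184 and 192 CPM in DMSO and 178, 166 and 199 CPM in oridonin, with wide overlap (0.02, SE 0.07, edgeR adjusted p = 0.882). EIF5AL1 was at 3.47 ± 0.608 and 3.25 ± 0.230 CPM (n = 3) and was not called (-0.11).

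RefSeq listed a start for 50 of the 62, and 13 of these (26.0%) had a C at a listed start followed by at least 4 C or T bases on the sense strand, against 4.07% of all 35116 listed starts and 7.27% of the 10812 tested genes with an entry. The other 12 had no entry and could not be sorted by their start. Of these, EEF1A2, EIF4EBP1, EIF3CL, EIF3L, EIF3E, EIF2AK1, EIF3A and EIF2S2 fell. EIF3G and EEF2KMT rose, and EIF3H and EEF1D were not called. Many of the lower calls are therefore left out of the counts that follow. Of the 13 members with a TOP start, 9 fell (EIF2S3L, EIF4B, EEF1A1, EEF1B2, EEF2, EIF2A, EIF2S3, EIF3F and EIF2D), 1 rose (EIF3D) and 3 were not called (EIF3M, EIF3K and EIF4A2). Their median log2 fold change was -0.29. Of the 37 members with an entry and no TOP start, 5 fell and 8 rose, with a median of 0.02.

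Among the 773 other tested genes with a TOP start, 34.0% fell and 16.2% rose, and among the 9989 without one, 21.4% fell and 22.6% rose. Leaving out ribosomal protein genes, the first shares were 31.7% and 17.2% of 726 genes. These counts describe the lists and were not tested. Where the start was read only at the first listed site, 8 of 12 members with a TOP start fell, against 6 of 38 without. Among the other tested genes, 37.0% of 571 with a TOP start at that site fell, and 21.5% of 10191 without. A run that could begin within 10 bases of the start was found in 56.0% of the members with an entry and in 41.5% of the tested genes with one. Of the 28 members with it, 11 fell and 2 rose, against 3 that fell and 7 that rose of the other 22. Calls of other tested genes with such a run were not counted, and over all genes tested 21.3% fell and 20.6% rose. With total-count scaling 8 of the 13 were lower and 1 higher, and of the 37 members without a TOP start 2 were lower and 16 higher. Of the 773 other genes with one, 183 were then lower and 190 higher, and of the 9989 without, 1565 were lower and 3280 higher. A match of these letters does not show that a transcript is controlled through them.

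**Figure D4:**
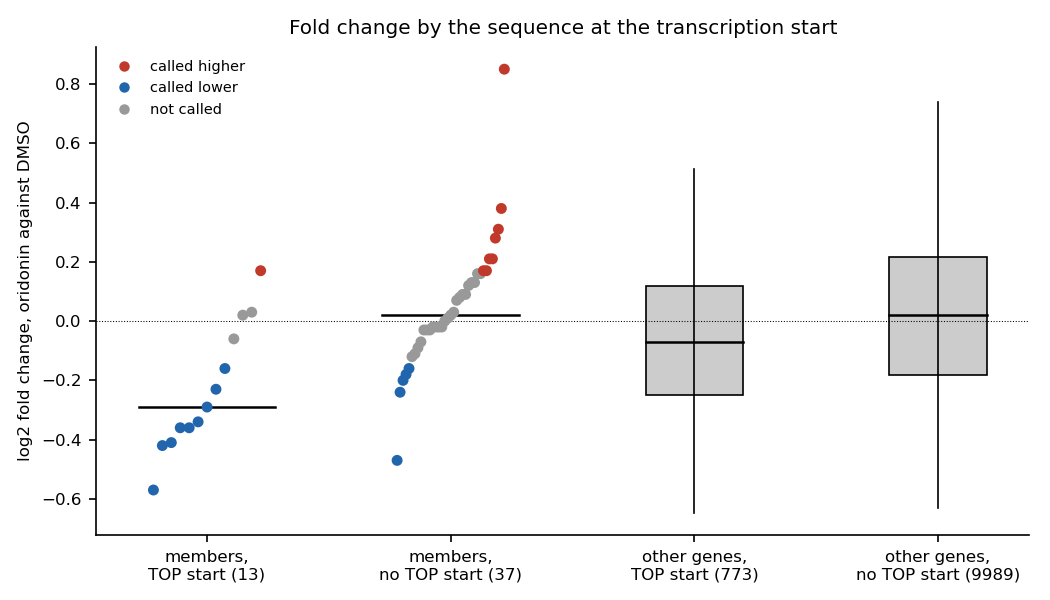
Log2 fold change (oridonin over DMSO, vertical axis) of members with and without a TOP start, as points coloured by call, beside the other tested genes. Boxes of the other genes span the 25th to 75th percentile with the median, and whiskers the 5th to 95th. The 13 members with a TOP start have a median of -0.29 and the 37 without one a median of 0.02. Members without a listed start are not drawn.

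A list of 10 family members named as TOP transcripts from general knowledge gave 7 lower calls (EEF1A1, EEF1A2, EEF1B2, EEF2, EIF3E, EIF3F and EIF4B), no higher call, and no call for EEF1D and EIF3H. The other, EEF1G, which encodes the eEF1B γ subunit, had 0 counts in all 6 libraries and was not in the log2 FPKM table. In GENCODE 29, 99.9% of its exon bases were overlapped on the same strand by AP002990.1. For EEF1D, 34.0% were overlapped on the opposite strand, so its missing call is uncertain too. The same counts of lower and higher calls were found with total-count scaling. Over all genes tested, 21.3% were lower and 20.6% higher, or 15.6% and 29.7% with total-count scaling. The list was chosen with earlier results of these data known. Of its lower calls, EEF1A1, EEF1B2, EEF2, EIF3F and EIF4B also had a TOP start by sequence, so it is not separate from the counts by sequence.

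Of 59 tested genes in 4 lists of other translation genes, 14 were higher and 12 lower, or 23 and 8 with total-count scaling. The shares over all genes tested were 20.6% higher and 21.3% lower, or 29.7% and 15.6% with total-count scaling. With TMM scaling the counts are thus near those of genes in general. With total-count scaling the higher calls were a larger share than over all genes, a difference that was not tested. Higher calls numbered 8 without the first DMSO library and 7 without the third oridonin library. Among 19 other cytosolic factors, 5 rose and 6 fell. PABPC1, the poly(A)-binding protein and itself encoded by a known TOP mRNA, fell from 1118 ± 32.1 to 788 ± 49.7 CPM (n = 3, SD, -0.50), and RACK1, a protein of the small ribosomal subunit, from 1276 ± 50.6 to 965 ± 42.0 CPM (-0.40). DHX29, a helicase that aids scanning on structured leaders, rose from 27.1 ± 1.96 to 35.6 ± 0.28 CPM (0.39), and PELO, a ribosome rescue factor, from 45.4 ± 2.10 to 56.2 ± 1.74 CPM (0.31).

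Among the 9 enzymes that make hypusine on eIF5A and diphthamide on eEF2, 4 rose and 1 fell. DPH6 (0.37) and DNAJC24 (0.35) rose and DPH5 (-0.30) fell, all of the diphthamide pathway. Of 19 genes of mTORC1 signalling, the eIF4E kinases and eIF2 phosphatases, 4 rose and 4 fell. DDIT4, which encodes the mTORC1 inhibitor REDD1, fell from 147 ± 8.02 to 82.2 ± 7.52 CPM (n = 3, SD, -0.84), the phosphatase subunit PPP1CC fell by 0.40 on the log2 scale, and AKT1S1 (0.25) and RPTOR (0.18), which encode mTORC1 components, rose. MLST8, another component, named here after its values were seen, fell (-0.20, adjusted p = 0.0343 in edgeR), and the kinase gene MTOR was not called (adjusted p = 0.999 in edgeR). Of 12 mitochondrial translation factors, MTIF2 rose (0.18), MRRF fell (-0.28) and 10 were not called.

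By length-scaled level, the order of the members in DMSO was led by EEF1A1 at 2521 ± 17.5 FPKM, EEF2 at 1070 ± 99.3 and EEF1B2 at 317 ± 15.5 (SD, n = 3). In oridonin the same genes led, at 1922 ± 109, 847 ± 59.4 and 250 ± 8.68 FPKM. EIF5A, EIF4EBP1, EIF2S2 and EIF3I came next in DMSO, at 202 ± 20.1, 177 ± 16.5, 166 ± 6.49 and 138 ± 5.64 FPKM. In oridonin EIF5A stood at 224 ± 13.9, EIF3I at 169 ± 4.83, EIF2S2 at 150 ± 1.04 and EIF4EBP1 at 131 ± 5.92 FPKM. EIF5A and EIF4EBP1 lay within about their spread of each other in DMSO, as did EIF4EBP1 and EIF2S2. Across the 62 members, the log2 fold change and the mean log2 FPKM had a Pearson r of -0.286 and a Spearman rho of -0.144, given as a description, since members share libraries.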

How the data were processed

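RNA of HepG2 cells was sequenced in 6 libraries. The authors deposited whole-number counts per gene for 60504 genes and, for 18404 of them, log2 FPKM values with gene name, type, position and length. Per the submitters' processing notes the build was hg38 and DESeq2 1.10.1 was named, with no role given. No source used here names the aligner, the counter or the strand setting.

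The counts as deposited were tested with edgeR 4.0.16 (R 4.3.3), using the quasi-likelihood test with TMM scaling, default low-count filter and treatment as the only term, on 3 DMSO and 3 oridonin libraries. Benjamini-Hochberg adjustment ran over all 15116 genes tested, and genes were called at an adjusted p under 0.05. The fit was also run on simulated counts in which far fewer genes changed than were called here. That run does not vouch for the scaling or for the small changes in these data. FPKM values are 2 to the power of the deposited log2 values. Shares of paralogues used a two-sided exact permutation test. Alternatives were total-count scaling, 2 other filters, DESeq2 1.42.0, limma 3.58.1 on the log2 FPKM values, a replicate block and leaving out each library. Precision is limited by 3 libraries a group, of 22250202 to 30739574 counts.

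Members, roles and lists were chosen with earlier results of these data known. Values in every library were given for up to 8 called members at each end of the log2 fold change, of at least 1 CPM, for the most abundant member of each role and for 9 core genes. Up to 2 called genes in each direction were named from each other list. RefSeq starts (GRCh38.p14) and GENCODE 29 transcripts served for TOP starts, shared 50-base words and overlaps. Start sites, complex shares and their alternatives were added after the data were seen. Same-numbered libraries correlated at 0.194, 0.0651 and 0.173 in their deviations, so numbers were not taken as pairs.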

Additional observations from a re-analysis of the deposited data

How the results depend on the processing

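Of the 33 called members, 22 (15 lower and 7 higher) kept their call and direction in all 12 alternatives, and no called member reversed. Total-count scaling gave 19 higher members and 23 higher among the other translation genes. Leaving out 1 library at a time gave 9 to 12 higher and 18 to 21 lower members, 2534 to 3258 higher and 2748 to 3289 lower genes in all, and 7 to 15 higher and 10 to 11 lower other translation genes. The replicate block, for numbers that were not shown to pair libraries, gave 15 higher and 25 lower members, 3850 and 3839 genes in all, and 17 and 13 other translation genes. It added calls for EIF1 (adjusted p = 0.00643), EIF3H (0.00421) and EIF5 (0.0241), lower, and for EIF1AD (0.0149), EIF2AK4 (0.0435), EIF2B4 (0.0479) and EIF4E2 (0.012), higher, and ended none. Each library correlated best with its own number, a hint from the data only. DESeq2 called 8 higher and 20 lower members (14.2% and 16.5% of all its genes), and limma on log2 FPKM 11 and 16 (15.1% and 14.1%).

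Reversals were of members that were not called. Total-count scaling gave EEF2K 0.06, EIF3J 0.05, EIF3B 0.06, EIF4H 0.05, EIF4G2 0.01, EEF1E1 0.06, EIF3M 0.02, EIF4E 0.06 and EIF4ENIF1 0.05. DESeq2 gave EIF2B5 -0.01, and limma gave EEF1E1 0.003. Leaving out 1 library at a time, the range was -0.05 to 0.01 for EIF3J and for EIF3B, -0.01 to 0.03 for EIF1B, -0.07 to 0.08 for EEF1E1, -0.04 to 0.02 for EIF2B5, -0.06 to 0.01 for EIF4E, -0.02 to 0.08 for EIF3K and -0.06 to 0.08 for EIF6. The share of EIF2AK2 among the kinases, 0.136 percentage points higher with oridonin, was -0.252 by CPM, and -0.0137 and -0.00755 without the third DMSO or first oridonin library, with a range of -0.0137 to 0.319. The cause was not tested. With 3 libraries a group, the exact test of shares could not go below p = 0.1.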

Other observations

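The log2 FPKM table also listed 27 genes with family names and another gene type, 25 of them processed pseudogenes. Of these 25, 17 were tested, none was higher, 8 were lower, and the median log2 fold change was -0.39. Total-count scaling gave 5 lower and none higher. Over all genes tested, 21.3% were lower and 20.6% higher, or 15.6% and 29.7% with total-count scaling. Of 9 pseudogenes of EEF1A1, 6 were tested and 5 fell, with a median of -0.72. EEF1A1P5 fell from 263 ± 17.1 to 189 ± 16.5 CPM (n = 3, SD, log2 fold change -0.48, edgeR adjusted p = 2.15e-05), and EEF1A1P6 from 31.6 ± 2.27 to 18.7 ± 2.10 CPM (-0.75, edgeR adjusted p = 1.46e-06). EEF1A1 shared 20.4% of its 50-base words with other genes, most with EEF1A1P5, and how such reads were assigned is not given in the sources used here. The antisense gene EIF3J-AS1 was called higher (0.38, edgeR adjusted p = 0.00948), while EIF3J was at 135 ± 6.22 and 133 ± 2.80 CPM (n = 3).

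Of other genes with family names outside the members, EIF4EBP3 had 0 to 5 counts per library and EIF4E1B had 0 in all.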
